A study of Arabidopsis thaliana with 6 samples.

Results

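BCAT4 and AT2G31790 are 2 genes of the synthesis of glucosinolates from methionine. They were taken as the probe sets that name them in the platform annotation of the Affymetrix ATH1 array, which gave 1 probe set each (257021_at for BCAT4, locus AT3G19710, and 263477_at for AT2G31790). These are 2 of the 13356 genes that the annotation pairs with a probe set naming no other gene, on an array of 22810 probe sets. The RNA came from whole plants of Arabidopsis thaliana, and after amplification and biotin labelling it was read on 6 arrays, 2 for each of 3 groups. The groups were untreated wild-type plants labelled WS, described for one of the samples as the Wassilewskija accession, the octopus mutant labelled DYG25, and an OCTOPUS overexpressor labelled 35SDYG25. All plants were grown on MS/2 at 20 °C and 70% hygrometry. Plant age, the accession and allele of the mutant, and the construct, number of lines and accession of the overexpressor are not stated in the labels. Nor do they say whether the arrays of a group came from separate cultures, so the p-values rest on a spread that may be technical.

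Glucosinolates are sulphur-rich defence compounds of Arabidopsis and its relatives, which myrosinase enzymes split into toxic products when tissue is damaged. In the route from methionine, BCAT4, a cytosolic branched-chain aminotransferase, removes the amino group from methionine and so starts the elongation of its side chain. The elongated amino acid is then converted by cytochrome P450 enzymes, joined to a sulphur donor, cleaved, glucosylated and sulphated. AT2G31790 was placed at the glucosylation step. The glucosinolates so made are stored partly in sulphur-rich cells beside the phloem and are moved through the phloem by dedicated importers. OCTOPUS (OPS) is a membrane-associated protein of early phloem cells, and per the labels the phloem of the mutant differentiates poorly and its veins are patterned abnormally.

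The values are log2 GCRMA expression values as deposited. Array medians lay between 4.40 and 4.49, and the 25th percentile of an array between 2.54 and 2.70, close to the lowest values that the arrays gave. OPS stood at 9.52 and 9.83 on the overexpressor arrays, at 2.66 and 2.47 in wild type and at 2.53 and 2.47 in the mutant, so it checks the label of the overexpressor but not that of the mutant. The probe set of the 25S ribosomal RNA was higher on the mutant arrays, at 8.03 and 11.2, than on the other 4, which lay between 5.86 and 6.61. A spike-in control from the dap gene of Bacillus subtilis stood at 10.2 on wild-type array 2 and between 7.35 and 8.55 on the other 5 arrays. The 3′ minus 5′ difference of the GAPDH control, a sign of RNA quality, was 1.42 and 1.12 on the wild-type arrays, 1.80 and 1.39 on those of the mutant and 1.92 and 1.72 on those of the overexpressor, which did not overlap wild type. The values of 1782 probe sets are printed to more than 2 decimals on all wild-type and mutant arrays but not on the overexpressor arrays, and those of 237 on the overexpressor arrays alone. Should the overexpressor arrays have been processed apart from the others, that step and the overexpressor cannot be told apart in either comparison with them. Whether these differences bear on the genes described here was not tested, and the results without each array are given below.

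BCAT4 had its highest values in the mutant and its lowest in the overexpressor. The BCAT4 value was 8.63 and 8.33 on the wild-type arrays, 9.36 and 9.40 on the mutant arrays and 8.25 and 7.71 on the overexpressor arrays. Every mutant array was above every wild-type array, and both overexpressor arrays were below both wild-type arrays. The mutant mean was 9.38 ± 0.03 (SD, n = 2), the wild-type mean 8.48 ± 0.21 (SD, n = 2) and the overexpressor mean 7.98 ± 0.38 (SD, n = 2).

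AT2G31790 followed the same order of group means over a narrower range. Its value was 7.60 and 7.44 on the wild-type arrays, 7.81 and 8.13 on those of the mutant and 7.47 and 7.33 on those of the overexpressor. Both mutant arrays lay above all the others, while the overexpressor and wild-type arrays overlapped. The mutant mean was 7.97 ± 0.23 (SD, n = 2), the wild-type mean 7.52 ± 0.11 (SD, n = 2) and the overexpressor mean 7.40 ± 0.10 (SD, n = 2). Both genes stood well above the 25th percentile of the arrays in every group, so neither passed the filter on low values through a single group.

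**Figure D1:**
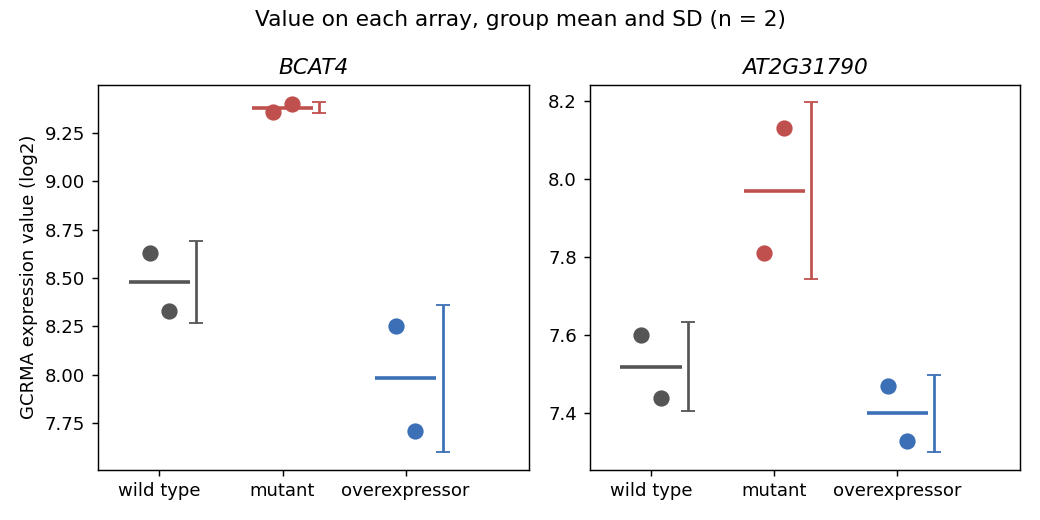
GCRMA expression value (log2 scale, a separate axis for each gene) of BCAT4 and AT2G31790 on each of the 6 arrays; points are arrays, horizontal lines are group means and bars are the SD over 2 arrays. Both mutant arrays lie above all other arrays for both genes, and the overexpressor arrays lie below the wild-type arrays for BCAT4 and overlap them for AT2G31790.

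In the comparison of the mutant with wild type, which asks which transcripts differ when OCTOPUS function is lost, BCAT4 rose and AT2G31790 did not pass the test. BCAT4 rose by 0.90 log2 units (SE 0.191, 95% interval 0.45 to 1.35, limma adjusted p = 0.0258), which is 1.87-fold with an interval of 1.36-fold to 2.55-fold. A probe set passed at an adjusted p below 0.05 in a limma fit of all 6 arrays, adjusted over the 12363 probe sets tested. Of these, 14.0% passed in this comparison, 6.84% as higher in the mutant and 7.20% as lower. A change at least as high as that of BCAT4 was found in 2.31% of the probe sets tested. AT2G31790 differed by 0.45 log2 units (SE 0.147, 95% interval 0.10 to 0.80, limma adjusted p = 0.0889), or 1.37-fold, and 12.2% of the probe sets tested had a change at least as high. For both genes the mutant arrays did not overlap the wild-type arrays, which was so in the same direction for 30.5% of the probe sets tested.

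The BCAT4 call in the mutant depended on single arrays. It was lost without wild-type array 1 (change 1.05, limma adjusted p = 0.0627), wild-type array 2 (0.75, adjusted p = 0.124), mutant array 1 (0.92, adjusted p = 0.145) and mutant array 2 (0.88, adjusted p = 0.138). It was also lost when probe sets with low values were kept in (limma adjusted p = 0.0675). The change itself stayed between 0.75 and 1.05 in the fits with an array left out, each of which left 1 array in a group, assumed to vary like the other groups.

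In the overexpressor against wild type, which asks what an excess of OCTOPUS transcript goes with, neither gene passed. BCAT4 differed by -0.50 log2 units (SE 0.191, 95% interval -0.95 to -0.05, limma adjusted p = 0.204), a value 1.41-fold lower in the overexpressor. With overexpressor array 2 left out the difference was -0.23, with overexpressor array 1 left out it was -0.77, and with wild-type array 1 left out it was -0.35, so its size rested on which arrays were used. Of the probe sets tested, 8.51% had a change at least as low as that of BCAT4, and 28.5% had both overexpressor arrays below both wild-type arrays. AT2G31790 differed by -0.12 (SE 0.147, 95% interval -0.47 to 0.23, limma adjusted p = 0.680). In this comparison 2.53% of all probe sets tested passed, 1.49% as higher and 1.04% as lower. The interval of AT2G31790 still holds a fall of up to 0.47 log2 units. Whether a difference of that size could be detected with 2 arrays a group was not tested.

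Between the overexpressor and the mutant both genes fell. BCAT4 was 2.64-fold lower in the overexpressor, a change of -1.40 log2 units (SE 0.191, 95% interval -1.85 to -0.95, limma adjusted p = 0.00533), and 0.728% of the probe sets tested had a change at least as low. AT2G31790 was 1.48-fold lower, a change of -0.57 (SE 0.147, 95% interval -0.92 to -0.22, limma adjusted p = 0.0390), and 10.8% of the probe sets tested had a change at least as low. In this comparison 18.4% of the probe sets tested passed, 9.55% as lower and 8.80% as higher in the overexpressor, and 33.3% had both overexpressor arrays below both mutant arrays. All 3 comparisons share arrays, and this one uses the same mutant arrays as the first.

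The BCAT4 call against the mutant was lost without mutant array 1 (change -1.42, limma adjusted p = 0.0519) and without mutant array 2 (-1.38, adjusted p = 0.0610), and held without each of the other 4 arrays. The AT2G31790 call against the mutant was lost without any one of the 6 arrays, with limma adjusted p between 0.0571 and 0.210 and changes between -0.73 and -0.41. It was also lost without the filter on low values (adjusted p = 0.0737), without the mean-variance trend (0.0521) and with only the 4 arrays compared (0.0569). In neither gene did the direction of any of the 3 comparisons turn when an array was left out.

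**Figure D2:**
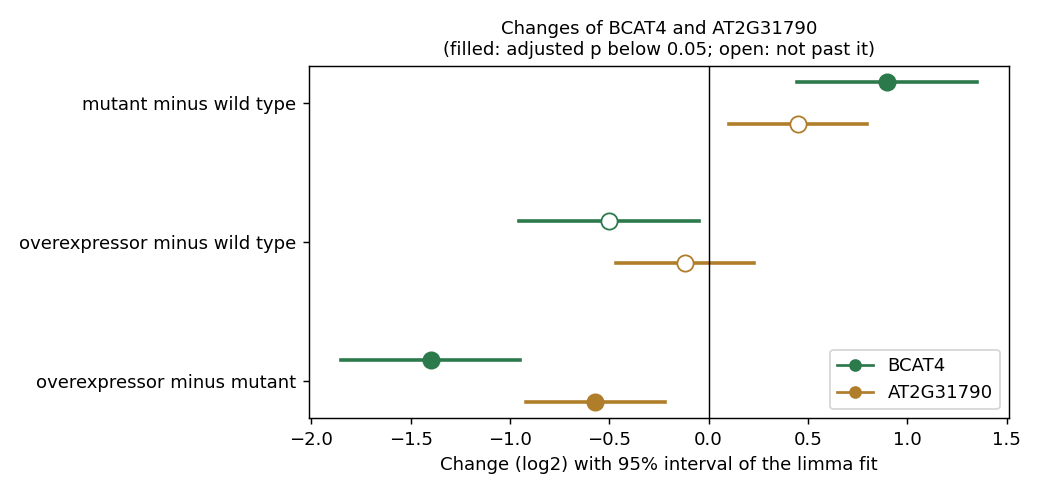
Change (log2) of BCAT4 and AT2G31790 in the 3 comparisons, with the 95% interval of the limma fit of 6 arrays; filled points passed at an adjusted p below 0.05 and open points did not. BCAT4 is at 0.90, -0.50 and -1.40 and AT2G31790 at 0.45, -0.12 and -0.57 in the mutant against wild type, the overexpressor against wild type and the overexpressor against the mutant.

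**Figure D3:**
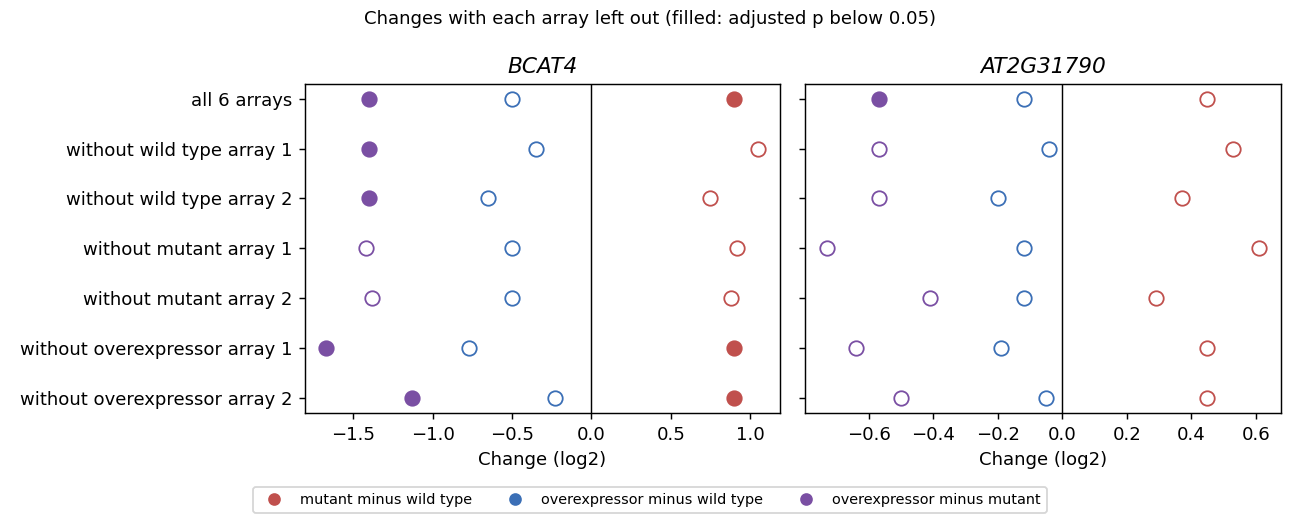
Change (log2, a separate axis for each gene) of BCAT4 and AT2G31790 in the 3 comparisons with all 6 arrays and with each array left out; filled points passed at an adjusted p below 0.05. The changes keep their side of 0 throughout, while the 1 call of AT2G31790, in the overexpressor against the mutant, is lost in every fit with an array left out.

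In order of level, the neighbours overexpressor and wild type did not differ beyond the test's threshold for either gene. The neighbours wild type and mutant did for BCAT4 and did not for AT2G31790. The order overexpressor, wild type, mutant with no overlap between the arrays of neighbouring groups was shown by BCAT4 and by 5.23% of all probe sets tested. The residual SD of BCAT4, 0.253, was larger than that of 80.8% of the probe sets tested, and that of AT2G31790, 0.157, was close to their median of 0.152. Across the 6 arrays the 2 genes correlated at r = 0.93, given as a description over 6 arrays in 3 groups, since arrays of a group share a label and every value shares the array's normalisation.

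The other genes of the pathway were taken from lists of its steps and of related families, 83 genes in all. Of these, 16 have a probe set naming them alone and 13 were tested, including both genes described above; the other 67 were not analysed here. These lists were chosen with earlier results of these data known, so the counts that follow are a description. Leaving BCAT4 and AT2G31790 out, 3 of 11 tested genes rose in the mutant and none fell, against 6.84% and 7.20% of all probe sets tested. Without wild-type array 1, wild-type array 2 or mutant array 1 the 3 became 1. The median change of the 11 was 0.40 log2 units, beside -0.01 over all probe sets tested. None of the 11 passed in the overexpressor against wild type, where 2.53% of all probe sets tested did, with a median of -0.23 beside -0.045 over all probe sets tested. Between the overexpressor and the mutant 3 of 11 fell and none rose, against 9.55% and 8.80% of all probe sets tested, with a median of -0.29 beside -0.03.

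Of the 11 entries for the steps that build the core of the molecule, 3 were measured, AT2G31790, UGT74B1 and GSTU20. GSTU20, a glutathione transferase placed at the joining of the sulphur donor, had the largest changes of these 3 in every comparison. The GSTU20 value was 8.69 and 8.66 on the wild-type arrays, 9.95 and 10.4 on those of the mutant and 8.23 and 8.44 on those of the overexpressor. The 3 groups did not overlap, in the same order as for BCAT4. GSTU20 rose by 1.50 log2 units in the mutant (SE 0.162, limma adjusted p = 0.00343), or 2.83-fold, and passed under each of the 14 alternative settings and left-out arrays. In the overexpressor GSTU20 differed from wild type by -0.34 (limma adjusted p = 0.285), and it fell by 1.84 against the mutant (SE 0.162, limma adjusted p = 0.00128).

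UGT74B1, which glucosylates the thiohydroximate precursor of glucosinolates, did not pass in any comparison. Its value was 8.20 and 8.30 on the wild-type arrays, 8.34 and 8.49 on those of the mutant and 8.26 and 8.01 on those of the overexpressor. It differed by 0.165 in the mutant (95% interval -0.14 to 0.47, limma adjusted p = 0.434) and by -0.115 in the overexpressor (95% interval -0.42 to 0.19, adjusted p = 0.648). Whether UGT74B1 and AT2G31790 differ in their response was not tested.

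Of the genes of side chain modification, AOP1, of the family of dioxygenases that modify the side chain, was at 5.33 and 4.98 on the wild-type arrays, 5.32 and 5.85 on those of the mutant and 4.99 and 4.59 on those of the overexpressor. AOP1 differed by 0.43 in the mutant (limma adjusted p = 0.283), by -0.365 in the overexpressor (adjusted p = 0.433) and by -0.795 between the overexpressor and the mutant (adjusted p = 0.0640). AOP3, which makes hydroxyalkyl side chains, lay between 2.40 and 2.49 on all arrays, at the level of the 25th percentile, and was not tested. AT1G04770, the 1 entry measured from the list of regulators, was at 7.29 and 7.87 on the wild-type arrays, 8.43 and 7.79 on those of the mutant and 7.86 and 7.89 on those of the overexpressor, and it did not pass in any comparison (lowest limma adjusted p = 0.208, in the mutant). Its mutant and wild-type arrays overlapped.

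Taken over the 4 lists of the methionine route, 6 genes were tested, of which 2 rose in the mutant (BCAT4 and GSTU20) and 3 fell in the overexpressor against the mutant (these and AT2G31790). Of all probe sets tested, 6.84% rose in the former comparison and 9.55% fell in the latter. Both counts include BCAT4 and AT2G31790, which, like the lists themselves, were chosen with earlier results of these data known. Without BCAT4 and AT2G31790, 1 of 4 rose in the mutant and 1 of 4 fell in the overexpressor against the mutant. The median change of the remaining 4 was 0.48 in the mutant, -0.23 in the overexpressor against wild type and -0.54 in the overexpressor against the mutant. All 4 were above 0 in the mutant and 3 were below 0 in the overexpressor against wild type, but 1 of them passed in the mutant and none in the overexpressor against wild type. The 4 are GSTU20, UGT74B1, AOP1 and AT1G04770. AT1G04770, at 0.295 in the overexpressor against wild type, is entered as a regulator, so its direction need not mean the same as that of an enzyme. Of the 12363 probe sets tested, 6004 were above 0 in the mutant and 6930 below 0 in the overexpressor. The list for indole glucosinolates had 9 entries, of which 0 had a probe set naming them alone. The methionine route could therefore not be set beside the indole route.

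The transporters did not follow this order. GTR1, which imports glucosinolates into cells and loads the phloem, was at 7.29 and 6.96 on the wild-type arrays, 6.37 and 6.67 on those of the mutant and 6.92 and 6.34 on those of the overexpressor. GTR1 differed by -0.605 in the mutant (limma adjusted p = 0.125) and by -0.495 in the overexpressor (adjusted p = 0.271). GTR2, its close relative, was at 7.30 and 7.33, 7.01 and 7.19, and 7.05 and 6.57 in the same groups, and it differed by -0.215 (limma adjusted p = 0.460) and by -0.505 (adjusted p = 0.177). Both lines lay below wild type for both transporters without overlap, as did 32.0% of all probe sets tested for the mutant and 28.5% for the overexpressor; none of these differences passed. BGLU28, a beta-glucosidase that splits glucosinolates, lay between 2.40 and 2.51 and was not tested.

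In the supply of sulphur and methionine, APS3, an ATP sulfurylase that activates sulphate, also rose in the mutant. The APS3 value was 6.07 and 5.96 on the wild-type arrays, 7.14 and 6.76 on those of the mutant and 5.57 and 5.47 on those of the overexpressor, again with no overlap between the groups. APS3 rose by 0.935 log2 units in the mutant (SE 0.165, limma adjusted p = 0.0147), or 1.91-fold. It differed by -0.495 in the overexpressor against wild type (adjusted p = 0.162) and fell by 1.43 against the mutant (SE 0.165, adjusted p = 0.00302). The rise in the mutant was lost without wild-type array 1, wild-type array 2 or mutant array 1 (highest limma adjusted p = 0.104).

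CBL, the cystathionine beta-lyase of methionine synthesis, stood at 7.92 on both wild-type arrays, at 8.16 and 8.22 in the mutant and at 8.12 and 8.17 in the overexpressor. It differed by 0.27 in the mutant (limma adjusted p = 0.124) and by 0.23 in the overexpressor (adjusted p = 0.267), so that both lines lay above wild type without overlap, as did 30.5% of the probe sets tested in the mutant and 21.9% in the overexpressor. CBL is the 1 tested gene of these lists whose wild-type and mutant values are printed to more than 2 decimals. Over the 411 tested probe sets so printed, the median SD of the wild-type arrays was 0.0662, against 0.106 over the other 11952, and whether this bears on CBL was not tested.

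In the family of BCAT4, AT1G50110, entered in the list of branched-chain aminotransferases, was at 4.70 and 4.51 on the wild-type arrays, 5.50 and 5.42 on those of the mutant and 4.56 and 4.66 on those of the overexpressor. AT1G50110 rose by 0.855 log2 units in the mutant (SE 0.153, limma adjusted p = 0.0150), or 1.81-fold. It differed by 0.005 in the overexpressor against wild type (95% interval -0.36 to 0.37) and fell by 0.85 against the mutant (SE 0.153, limma adjusted p = 0.0129). Its call in the mutant was lost without the filter on low values and when either array of wild type or of the mutant was left out (highest limma adjusted p = 0.111), and its call against the mutant without either mutant array (0.0848). ATBCAT-5, a further branched-chain aminotransferase, lay between 7.07 and 7.32 on the 6 arrays and differed by 0.055 in the mutant (95% interval -0.23 to 0.34, adjusted p = 0.806).

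Among relatives of AT2G31790, UGT74D1, a glucosyltransferase, was at 7.95 and 8.16 on the wild-type arrays, 8.53 and 8.38 on those of the mutant and 8.07 and 7.58 on those of the overexpressor. UGT74D1 differed by 0.40 in the mutant (limma adjusted p = 0.183), by -0.23 in the overexpressor (adjusted p = 0.503) and by -0.63 between the overexpressor and the mutant (adjusted p = 0.0521). UGT74F1, a glucosyltransferase of salicylic acid, lay between 2.90 and 3.39, near the lowest values, and was not tested. Of the 13 tested genes of all these lists, BCAT4 and AT2G31790 included, 3 (BCAT4, GSTU20 and APS3) showed the order overexpressor, wild type, mutant without overlap. So did 5.23% of all probe sets tested.

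**Figure D4:**
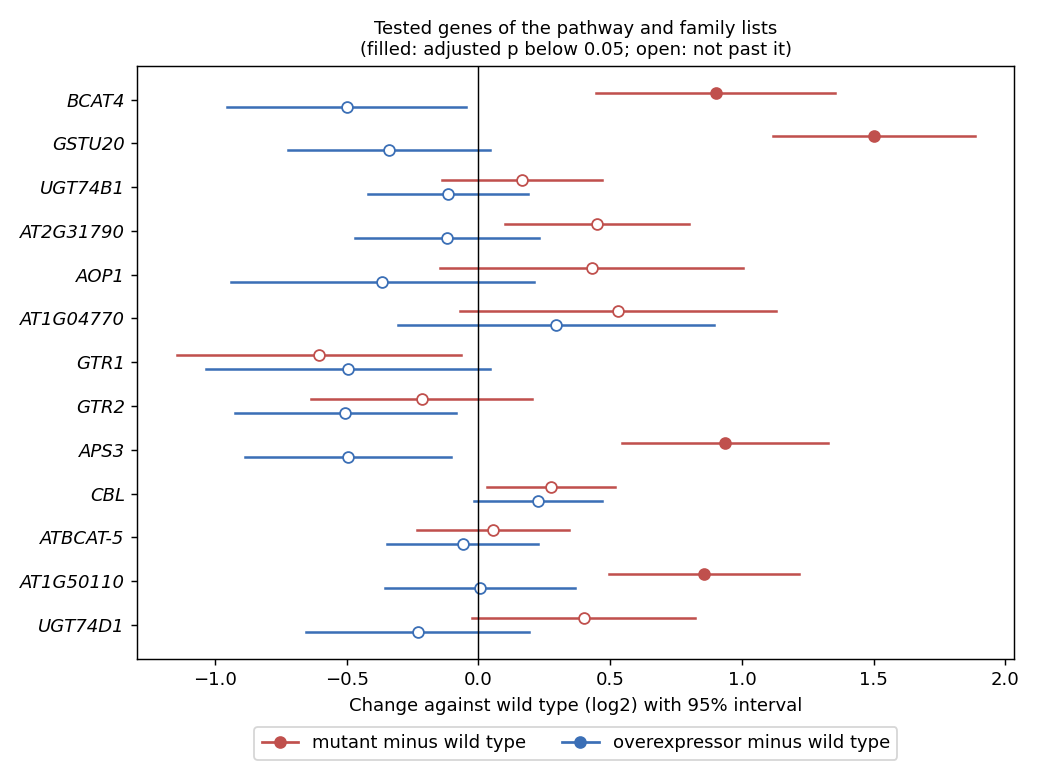
Change against wild type (log2, with the 95% interval of the limma fit) of the 13 tested genes of the pathway and family lists in the mutant and in the overexpressor; filled points passed at an adjusted p below 0.05. BCAT4, GSTU20, APS3 and AT1G50110 passed in the mutant, all as higher, and no gene passed in the overexpressor.

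Markers of organs and cell types were read beside these results, because whole plants were used, and fewer cells of a type and less RNA per cell cannot be told apart. Of the root markers 3 of 4 were measured, and the log2 of their summed level was 12.4 and 12.5 on the wild-type arrays, 12.4 and 12.5 on those of the mutant and 12.1 and 12.0 on those of the overexpressor. Most of that sum is PYK10, a beta-glucosidase of roots, which fell by 0.375 in the overexpressor against the mutant (limma adjusted p = 0.0395, lost in 7 of the 14 alternatives). In that comparison EXPA7 differed by -0.125 (adjusted p = 0.706) and EXPA18 by 0.15 (adjusted p = 0.563), expansin genes of root hairs, and none of the 3 passed against wild type in either line. In the overexpressor against wild type PYK10 differed by -0.42 (limma adjusted p = 0.0805), EXPA7 by -0.55 (0.191) and EXPA18 by -0.04 (0.911). All 3 of these differences were in the direction of BCAT4. In the mutant PYK10 differed by -0.045, EXPA7 by -0.425 and EXPA18 by -0.19, the opposite direction to BCAT4. Of the green shoot markers 3 of 5 were measured, with a summed level of 14.4 and 14.5 on the wild-type arrays, 14.6 and 14.6 on those of the mutant and 14.4 and 14.3 on those of the overexpressor. The antenna gene LHCB4.2 among them rose by 1.31 in the mutant (limma adjusted p = 0.0254, lost without either mutant array and without the filter). That change was 0.83 without wild-type array 1 and 1.79 without wild-type array 2. LHCB4.2 fell by 1.205 in the overexpressor against the mutant (limma adjusted p = 0.0281, lost without either mutant array, without either overexpressor array and without the filter). In both comparisons its direction was that of BCAT4. Against wild type, LHCB4.2 differed by 0.105 in the overexpressor (limma adjusted p = 0.856), where BCAT4 differed by -0.50. RCA and PSAN did not pass in any comparison, and in the mutant RCA differed by 0.185 and PSAN by -0.15. In the overexpressor against wild type RCA differed by 0 and PSAN by -0.295.

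Of the phloem markers 1 of 5 was measured, the sucrose exporter gene SWEET11, at 10.54 and 10.64 on the wild-type arrays, 9.67 and 9.95 on those of the mutant and 10.22 and 10.38 on those of the overexpressor. SWEET11 fell by 0.78 in the mutant (SE 0.123, limma adjusted p = 0.0102, lost without wild-type array 2 or mutant array 1), the opposite direction to BCAT4. In the overexpressor SWEET11 differed from wild type by -0.29 (limma adjusted p = 0.243), the same direction as BCAT4. It was higher by 0.49 in the overexpressor than in the mutant (limma adjusted p = 0.0358), a call lost in 9 of the 14 alternatives, among them each fit with an array left out. Of the myrosin cell markers 1 of 3 was measured, FMA, at 4.57 and 4.56 on the wild-type arrays, 3.89 and 4.27 on those of the mutant and 4.25 and 3.91 on those of the overexpressor, and it did not pass in any comparison. No marker was listed at 0, but the lowest value on the arrays was 1.82, so this does not show that a cell type was present. The part that organ or cell type makeup has in the levels of BCAT4 and AT2G31790 was not tested.

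The genes whose pattern was most like each member were taken as the 5 with the highest Pearson correlation over the 6 arrays, among the other 2372 probe sets tested that name 1 gene and whose group means span at least 0.5 log2 units. For BCAT4 these were AT1G07070 (r = 0.995), AT2G48080 (r = 0.993), AT1G18540 (r = 0.992), AT4G24780 (r = 0.990) and AT3G51720 (r = 0.990). With 6 arrays such likeness was common, since 267 of the 2372 probe sets (11.3%) reached r = 0.9 with BCAT4. AT4G24780, for example, was at 8.66 and 8.35 on the wild-type arrays, 9.29 and 9.39 on those of the mutant and 8.20 and 7.96 on those of the overexpressor. AT2G48080 had an overexpressor mean of 3.67, below the minimum of 4 that the filter required of the mean over all arrays. Its other group means were 4.195 (wild type) and 5.475 (mutant).

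For AT2G31790 the most alike were AT3G50900 (r = 0.999), AT3G21670 (r = 0.996), AT2G27420 (r = 0.996), AT5G21100 (r = 0.994) and AT1G15410 (r = 0.994), and 163 of the 2372 (6.87%) reached r = 0.9. AT2G27420 met the filter on low values only through the mutant, whose mean was 5.665. Its wild-type mean of 3.71 and its overexpressor mean of 3.06 were below the minimum of 4. AT3G50900 was at 4.86 and 4.70 on the wild-type arrays, 5.16 and 5.54 on those of the mutant and 4.74 and 4.56 on those of the overexpressor. In these genes, as in AT2G31790, mutant array 2 was above mutant array 1, a likeness that goes with their choice by correlation over the same arrays. The mutant arrays of BCAT4 were nearly equal. The sets of 5 share no gene, and 170 probe sets were more like BCAT4 than AT2G31790 was. Of the 11 other tested pathway and family genes APS3 was at r = 0.95 with BCAT4, and AOP1 at r = 0.95 and GSTU20 at r = 0.94 with AT2G31790. The lowest correlations among them were those of GTR1, at r = -0.07 with BCAT4 and r = -0.13 with AT2G31790, followed by CBL and AT1G04770 at r = 0.28 with BCAT4 and AT1G04770 at r = 0.14 with AT2G31790.

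**Figure D5:**
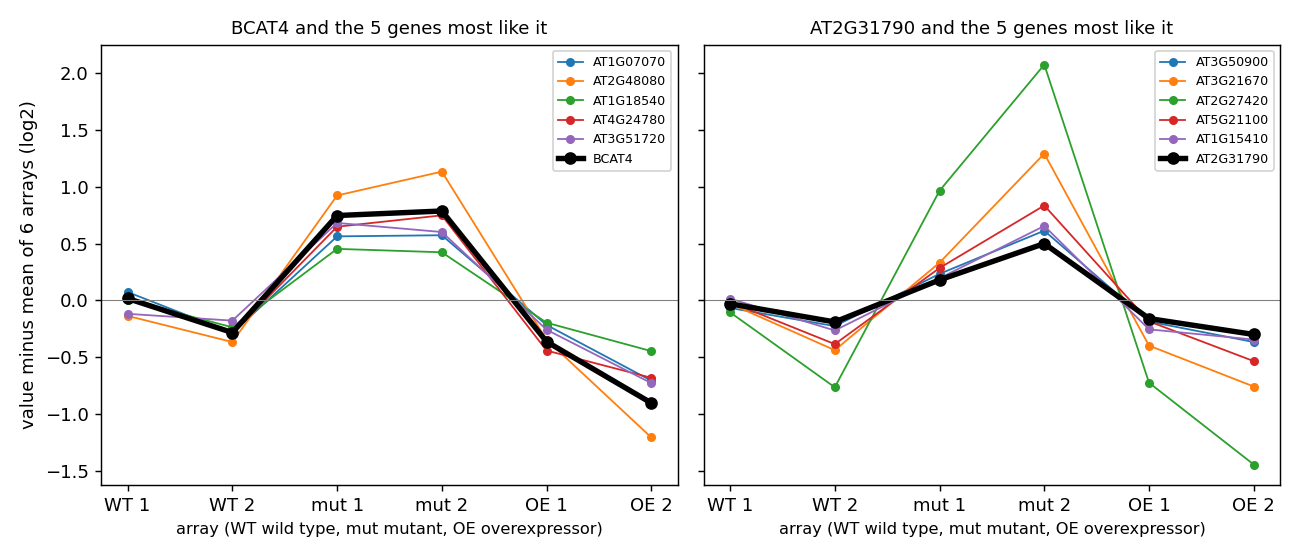
Value minus the mean of the 6 arrays (log2) for BCAT4, AT2G31790 and the 5 genes most like each, by array; lines join the arrays of a gene only to make its pattern visible. All curves are highest on the mutant arrays and lowest on overexpressor array 2, a likeness that follows from choosing the genes by correlation over these arrays.

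The genes next to the members on their chromosomes were taken from the TAIR10.1 annotation, a comparison chosen after the values were seen. AT2G31800, separated from AT2G31790 by 1 annotated gene, fell by 0.88 log2 units in the mutant (SE 0.148, limma adjusted p = 0.0127) and was higher by 1.125 in the overexpressor than in the mutant (limma adjusted p = 0.00474). Its call in the mutant was lost without wild-type array 2, mutant array 1 or mutant array 2 (highest limma adjusted p = 0.0921), and its call against the mutant without mutant array 2 (0.0545). AT2G31810, the next gene with a named probe set, differed by -0.515 in the mutant (limma adjusted p = 0.101) and was higher by 0.91 in the overexpressor than in the mutant (adjusted p = 0.0167), a call lost without mutant array 1, mutant array 2 or overexpressor array 2 (highest 0.114). Both genes thus stood on the opposite side of 0 from AT2G31790 in these comparisons. On the other side the nearest gene with a named probe set was UGT74D1, with 9 annotated genes between, whose values are given above. The next, AT2G31740, differed by 0.385 in the mutant (limma adjusted p = 0.259) and by -0.65 between the overexpressor and the mutant (limma adjusted p = 0.0715). UGT74D1 and AT2G31740 stood on the same side of 0 as AT2G31790, and neither passed.

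Next to BCAT4 the gene IKU2 was near the lowest values in every group, with a wild-type mean of 2.48, a mutant mean of 2.50 and an overexpressor mean of 2.60, and was not tested. AT3G19740, with 1 annotated gene between, has a pair of probe sets: one differed by 0.63 in the mutant (SE 0.199, limma adjusted p = 0.0806) and the other stayed at about 2.5 in every group and was not tested.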

How the data were processed

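Per the submitters' processing notes, the deposited log2 expression values were made by the authors with GCRMA, whose version is not given. Their log2 scale rests on their range (1.82 to 14.3), and whether all arrays were normalised jointly is not stated. Of 22810 probe sets, 13513 name 1 gene in the platform table, 503 name several and 8794 are not listed; 13436 were matched to TAIR10.1 by gene number and 77 kept the table's name. No coordinates or sequences are printed. limma 3.58.1 in R 4.3.3 (lmFit, eBayes with trend, two-sided) was fitted to all 6 arrays without covariates, leaving 3 residual degrees of freedom and a prior of 3.98. Leaving out 64 control probe sets, a mean of at least 4 was required, which 12363 probe sets met; p-values were adjusted by Benjamini-Hochberg within a comparison. The number of arrays limits the precision. The fit was tested on simulated data. Named genes are BCAT4, AT2G31790, every list gene with a named probe set, the 5 genes most like each member and OPS; the chromosomal neighbours were added after their values were seen. Members, lists and tests were chosen with earlier results of these data known. Alternatives were another filter, normalisation, prior, set of arrays, the replicate block and each array left out.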

Additional observations from a re-analysis of the deposited data

How the results depend on the processing

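BCAT4 and AT2G31790 kept their direction in every comparison under all alternatives. Without a filter on low values BCAT4 in the mutant (0.90, limma adjusted p = 0.0675) and AT2G31790 between the lines (-0.57, adjusted p = 0.0737) lost their calls. More probe sets are then adjusted over. The SE also changed, from 0.191 to 0.196 for BCAT4 and from 0.147 to 0.139 for AT2G31790. The part of each was not tested. AT2G31790 between the lines was also lost without the trend (-0.57, adjusted p = 0.0521), with the 4 arrays compared alone (-0.57, 0.0569) and with the replicate block (-0.57, 0.0737).

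The labels do not say that replicate numbers pair the arrays, and deviations of same-numbered arrays from their group means correlated at -0.24 between wild type and mutant, 0.16 between wild type and overexpressor and -0.31 between mutant and overexpressor. The replicate block changed no other call of the 2 genes (BCAT4 in the mutant 0.90, adjusted p = 0.0297). A block with the mutant numbers exchanged, added after seeing the data, moved AT2G31790 in the mutant past the threshold (0.45, adjusted p = 0.0389) and gave 5 other pathway genes between the lines and 771 probe sets in the overexpressor against wild type. That last count was 191 with a mean of at least 6, 75 with the 4 arrays alone and 118 with the block, against 313; the mutant count was 1009 without a filter, against 1736. The causes were not tested.

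With each array left out, BCAT4 ranged from 0.75 to 1.05 in the mutant, from -0.77 to -0.23 in the overexpressor and from -1.67 to -1.13 between the lines, and AT2G31790 from 0.29 to 0.61, -0.20 to -0.04 and -0.73 to -0.41. Probe sets passing ranged from 167 to 1807, from 57 to 373 and from 363 to 1931 in the same order. Other pathway genes passing ranged from 1 to 3 in the mutant and from 2 to 4 between the lines, and none passed in the overexpressor against wild type.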
